A study of Homo sapiens with 8 samples.

Results

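A set of 50 genes was silent at one end of a long culture series of H9 human embryonic stem cells (hESCs) and expressed at the other. Of them, 28 were on genes, silent in P1 and P2 hESCs and expressed in P3 and P4 hESCs, and 22 were off genes with the opposite pattern. A gene was taken as an on gene when its expected count, the read count that the quantification program assigns to a gene, was at most 3 in each of the 4 P1 and P2 samples and at least 5 in each of the 4 P3 and P4 samples, with a mean of at least 10 in the latter. The off genes met the same limits with the groups exchanged. The rule was met by 35 genes in the on direction, 0.102% of the 34185 genes with a count in any sample, and by 27 genes in the off direction, 0.079%. Of the genes with a mean of at least 10 counts on the expressed side these were 0.197% and 0.146%. A further 7 and 5 of these were set aside by name, which left 50 of the 60675 genes in the files. The genes were thus chosen by their counts in the 8 samples, and the difference between early and late hESCs is given below as a description, without a test.

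H9 (WA09) is an established line derived from a human blastocyst. The series held P1 hESCs with passage numbers in the 40s, P2 hESCs in the 100s, P3 hESCs in the 200s and P4 hESCs in the 300s, each with 2 samples of messenger RNA sequenced on a stranded library. All were grown without feeder cells in mTeSR1 medium on Matrigel and passaged with dispase, and the labels name no treatment and no engineered allele for any of them. All groups were passages of a single line, so passage number and whatever else differed between these cultures cannot be told apart, and no source used here says whether the 2 samples of a group came from separate cultures. The study describes P3 and P4 hESCs as carrying extra copies of a part of the long arm of chromosome 20, which separates late from early hESCs as well. The p-values below measure the spread between these samples, which may be technical.

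The 8 samples held between 26874899 and 38095600 counts, so that 3 counts corresponded to between 0.0787 and 0.1116 CPM, the count scaled to the size of the library. Raw library totals were used for this range, whereas the CPM values below use adjusted library sizes. The share of counts from mitochondrial genes ran from 5.89% to 18.53% and did not follow the passage groups, with 1 sample each of P1, P3 and P4 at 17.24% or more. The summed level of 8 pluripotency markers was between 3223 and 4773 TPM, a level scaled to transcript length and library, in every sample, whereas 8 mesoderm and endoderm markers summed to at most 5.91 TPM and 4 blood markers to at most 0.72 TPM. The 6 neural markers summed to 254.15 to 374.71 TPM, of which NES made up 121.77 to 210.46 TPM and TUBB3 115.42 to 160.18 TPM. Of 4 fibroblast markers, COL1A1 alone was above 0.18 TPM, at 92.76 to 150.46 TPM in early and 51.26 to 64.1 TPM in late samples. The 6 trophoblast markers summed to 11.17 to 16.51 TPM in early and 4.87 to 11.98 TPM in late samples, of which KRT7 made up 10.02 to 14.3 TPM and 3.77 to 11.64 TPM. The part of these markers in the switched genes was not tested.

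Genes can be kept silent in pluripotent cells by DNA methylation of a CpG-rich promoter, by repressive chromatin or by the absence of the factors that drive them. Imprinted genes are silenced on one parental allele, cancer-testis genes are expressed mainly in germ cells and tumours because their promoters are methylated elsewhere, and interferon-stimulated genes stay low until a signalling complex binds a short promoter element rich in GAAA. Human ESC cultures are known to lose or gain silencing at some of these genes during prolonged passaging.

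The promoters of 26 of the 50 genes, from 250 bases before to 50 bases after the start in RefSeq on GRCh38.p14, could be matched. Matching was by Ensembl identifier and, where that failed, by symbol. Those of 4 on genes with a part in antiviral or immune signalling are shown first. Capitals mark GAAA, any 2 bases and again GAAA on either strand, a pattern like the core of the interferon-stimulated response element. The windows lie at chr4:76023448-76023747 (minus strand) for CXCL10, chr7:93117930-93118229 (minus) for SAMD9, chr3:46027434-46027733 (minus) for XCR1 and chr12:112906712-112907011 (plus) for OAS1. OAS1 had no match to this pattern, although its window holds gaaacgaaa, a closer spacing of GAAA that was not searched for. NLRP11, a further gene of this kind with a promoter entry, had no match either and is not printed.
CXCL10: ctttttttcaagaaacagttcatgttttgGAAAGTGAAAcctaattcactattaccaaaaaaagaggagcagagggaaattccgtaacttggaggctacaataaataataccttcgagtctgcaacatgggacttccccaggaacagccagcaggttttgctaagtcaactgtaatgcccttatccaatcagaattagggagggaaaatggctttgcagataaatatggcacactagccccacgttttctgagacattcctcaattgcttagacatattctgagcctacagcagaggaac
SAMD9: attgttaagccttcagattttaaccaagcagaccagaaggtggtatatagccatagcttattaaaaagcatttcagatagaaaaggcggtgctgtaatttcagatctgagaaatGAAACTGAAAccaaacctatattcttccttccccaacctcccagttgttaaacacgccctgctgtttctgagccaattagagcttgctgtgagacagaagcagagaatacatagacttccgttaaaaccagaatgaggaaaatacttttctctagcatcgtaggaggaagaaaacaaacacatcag
XCR1: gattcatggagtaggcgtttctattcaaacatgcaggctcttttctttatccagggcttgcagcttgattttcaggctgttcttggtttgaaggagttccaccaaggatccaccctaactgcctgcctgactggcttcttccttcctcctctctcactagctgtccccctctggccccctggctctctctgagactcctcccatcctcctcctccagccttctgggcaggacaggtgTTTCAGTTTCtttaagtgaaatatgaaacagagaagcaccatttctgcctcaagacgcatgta
OAS1: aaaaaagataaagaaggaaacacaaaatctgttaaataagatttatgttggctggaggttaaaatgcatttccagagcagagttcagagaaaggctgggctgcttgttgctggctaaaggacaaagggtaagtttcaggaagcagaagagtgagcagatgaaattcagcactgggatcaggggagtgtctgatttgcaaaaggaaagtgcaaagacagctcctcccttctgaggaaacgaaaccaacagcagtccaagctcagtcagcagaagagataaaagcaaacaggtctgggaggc

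This pattern was present in 3 of the 17 on promoters with a sequence, 17.65%, and in 0 of the 9 off promoters. It was present in 3.57% of all 35116 promoters and in 2.79% of the 13123 promoters of other tested genes. The motif was looked for after the names of the genes were known, so these shares are a description.

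The next 3 promoters differ in CpG density and belong to a cancer-testis gene, an imprinted gene and a gene for a lysosomal protease, with every CG in capitals. They lie at chrX:152753671-152753970 (plus strand) for CSAG3, chr4:88697780-88698079 (minus) for NAP1L5 and chr11:66568557-66568856 (minus) for CTSF.
CSAG3: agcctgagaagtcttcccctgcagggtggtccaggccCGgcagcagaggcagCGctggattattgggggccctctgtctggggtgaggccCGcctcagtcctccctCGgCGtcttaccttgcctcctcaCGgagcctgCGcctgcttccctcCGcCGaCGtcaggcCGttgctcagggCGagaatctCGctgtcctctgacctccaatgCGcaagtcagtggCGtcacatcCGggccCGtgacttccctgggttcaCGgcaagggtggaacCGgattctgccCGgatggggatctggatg
NAP1L5: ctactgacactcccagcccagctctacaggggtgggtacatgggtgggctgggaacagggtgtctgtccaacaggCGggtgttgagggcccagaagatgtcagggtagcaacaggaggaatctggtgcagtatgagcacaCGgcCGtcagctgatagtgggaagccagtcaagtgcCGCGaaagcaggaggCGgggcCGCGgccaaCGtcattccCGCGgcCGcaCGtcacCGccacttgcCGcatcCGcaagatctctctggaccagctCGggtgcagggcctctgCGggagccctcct
CTSF: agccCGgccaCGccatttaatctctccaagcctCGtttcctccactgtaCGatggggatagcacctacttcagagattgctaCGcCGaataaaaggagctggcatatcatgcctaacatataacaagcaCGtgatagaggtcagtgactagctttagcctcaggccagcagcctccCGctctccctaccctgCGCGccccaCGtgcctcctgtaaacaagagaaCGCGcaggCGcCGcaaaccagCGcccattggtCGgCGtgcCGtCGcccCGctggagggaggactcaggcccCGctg

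The observed number of CpG divided by the number expected from the base composition was 0.625 in the CSAG3 promoter, 0.59 in NAP1L5 and 0.854 in CTSF. The OAS1, CXCL10 and XCR1 promoters were poor in CpG, at 0.074, 0.234 and 0.11. Over the 17 on promoters the median was 0.438 (quartiles 0.231 and 0.659), and over the 9 off promoters it was 0.717 (0.588 and 0.854), beside 0.817 in the other tested genes and 0.579 in all promoters. A ratio of at least 0.6 was reached by 6 on promoters (35.3%), 5 off promoters (55.6%), 48.9% of all promoters and 77.6% of the other tested genes. Among the on genes PON3 (0.96), RXRG (0.972) and CCDC68 (0.875) were the richest in CpG, and among the off genes RELN (1.03). These are descriptions of the promoters with an entry, not of all 50 genes.

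**Figure D1:**
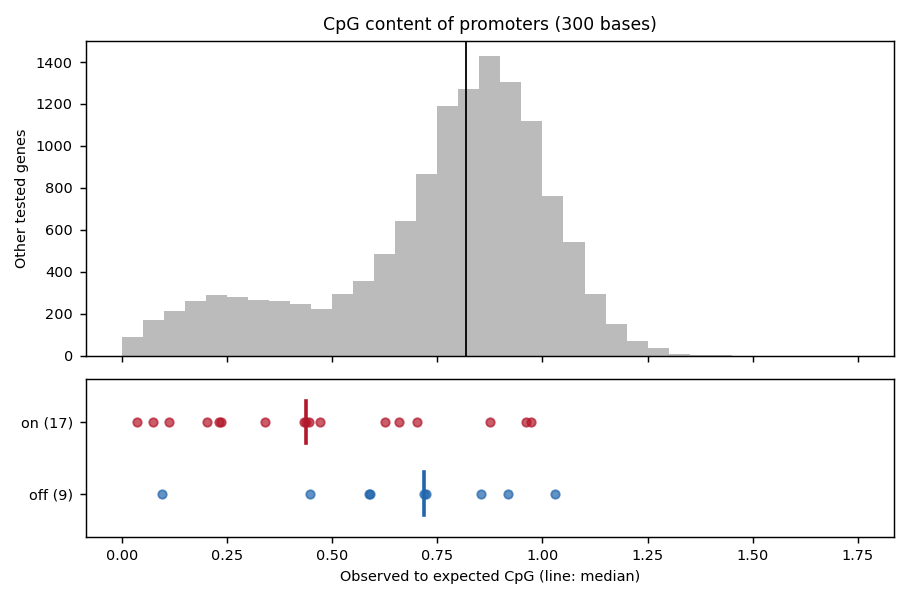
Observed to expected CpG in 300-base promoters of other tested genes (top, number of genes per bin, vertical line at the median of 0.817) and of 17 on and 9 off genes (bottom, one point per gene, bars at the medians of 0.438 and 0.717). The on genes are spread from near 0 to about the centre of the main peak of the other genes.

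Mean counts of the on genes in P3 and P4 hESCs ran from 10.3 to 2471. The mean count in P3 and P4 hESCs was at least 100 in 7 on genes and under 20 in 13, with a median over the genes of 23. Off genes were lower, with a mean of at least 100 in 0 genes, under 20 in 16 and a median of 13.5. On the length-scaled TPM measure, 9 on genes and 7 off genes reached a mean of 1, and the medians were 0.521 TPM and 0.32 TPM. Both sets were therefore mostly genes of low level, for which the limits of 3 and 5 counts lie close together. The silent side was not empty: the on genes together had 37 and 34 counts in the P1 samples and 25 and 24.68 in the P2 samples, and the off genes 15.56 and 22 in P3 and 18 and 17 in P4.

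**Figure D2:**
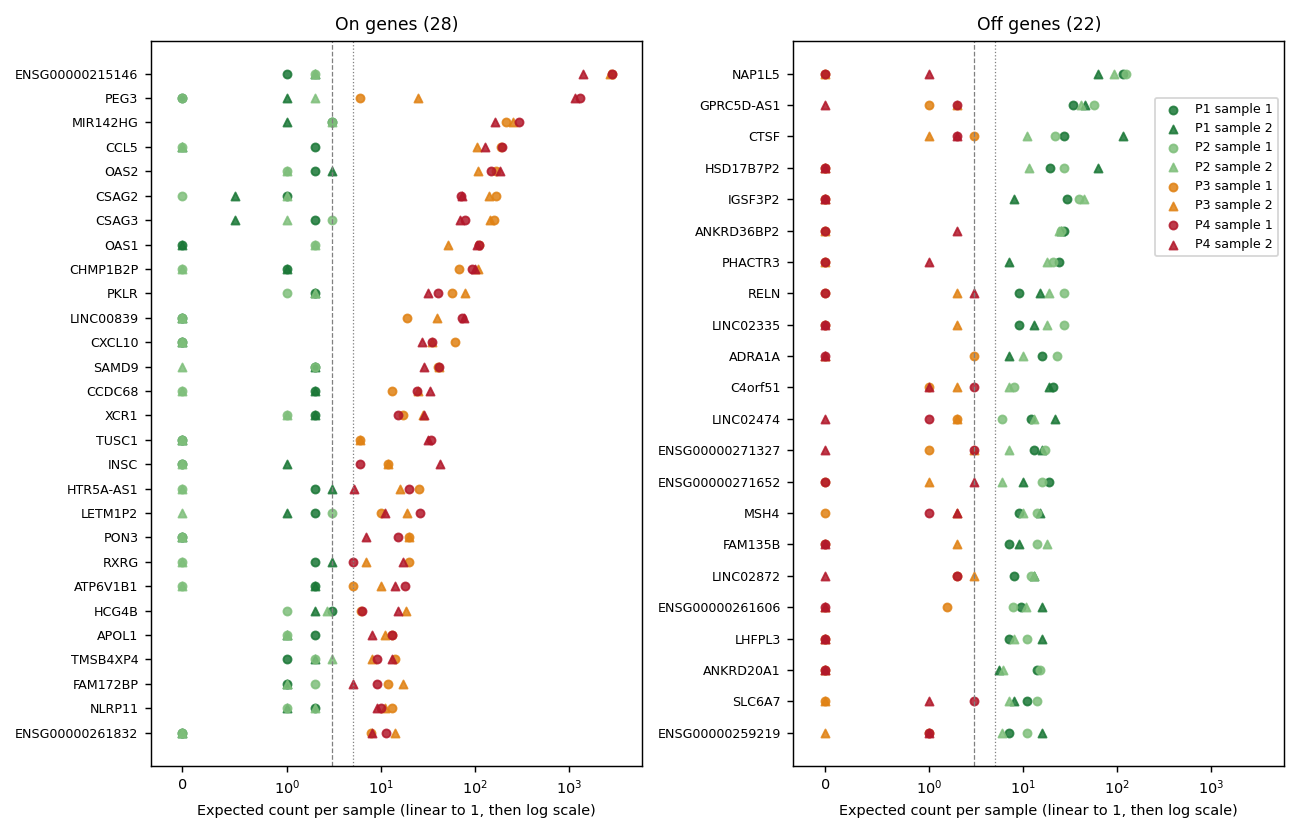
Expected count of each on gene (left) and off gene (right) in each of the 8 samples, on an axis that is linear up to 1 count and logarithmic above; lines mark the limits of 3 (dashed) and 5 (dotted) counts. ENSG00000215146 reaches 2857 counts, and PEG3 is the gene whose P3 and P4 samples lie farthest apart.

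The on gene with the highest level was ENSG00000215146, a transcribed unprocessed pseudogene on the minus strand at chr10:42331866-42367974 (GRCh38). It had 1, 2, 2 and 2 counts in the P1 and P2 samples and 2857, 2751, 2851 and 1425 counts in the P3 and P4 samples. Its level was 83.5 ± 9.58 CPM in P3 and 72.9 ± 35.3 CPM in P4 (SD, n = 2 each), or a mean of 20.4 TPM. It started 107.6 kb from LINC00839, a long non-coding RNA at chr10:42475543-42495336 that had 0 counts in all 4 early samples and 19, 39, 72 and 76 counts in the late samples. The mean of LINC00839 over the late samples, 1.68 CPM, was 17.8-fold above a floor of 3 counts per library. This floor was taken in the early library with the highest such value (0.0945 CPM). The lowest late sample of LINC00839 was at 0.6 CPM.

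On genes known from antiviral and inflammatory signalling form a group that was drawn up after the names were seen. OAS2 and OAS1 encode synthetases of 2′-5′ oligoadenylate, which activates RNase L in virus-infected cells. OAS2 had 2, 3, 1 and 1 counts in early samples and 166, 107, 148 and 184 counts in late samples. OAS1 had 0, 0, 2 and 2 counts in early samples and 110, 52, 111 and 106 counts in late samples. Both were thus near silent in every early sample, and sample 2 of P3 was the lowest late sample for each. The genes start 71.6 kb apart on chromosome 12 with OAS3 between them, and OAS3, the remaining family member in the cluster, was expressed throughout, at 1.58 to 4.12 CPM in early and 4.12 to 6.86 CPM in late samples (log2 fold change 0.80, SE 0.31, edgeR FDR 0.14).

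CCL5, a chemokine that attracts T cells and monocytes, had 2, 0, 0 and 0 counts in early samples and 188, 105, 195 and 127 counts in late samples. CXCL10, the interferon-induced ligand of CXCR3, was at 0 in all early samples and at 61, 35, 35 and 27 counts in late samples. Its mean over the late samples was 13.3-fold above the same floor. SAMD9, an interferon-inducible antiviral restriction factor, had 2, 2, 2 and 0 counts in early samples and 40, 41, 41 and 29 counts in late samples. Every late sample stood far above every early one for all 3, and SAMD9 was the most even of them among the late samples. APOL1, an innate immunity lipoprotein component, reached only 13, 11, 13 and 8 counts in late samples. XCR1, the receptor of the chemokine XCL1, had 17, 28, 15 and 29 counts in late samples, and NLRP11, an NLR family protein, 13, 11, 10 and 9.

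Relatives of these genes were taken by symbol stem. Between early and late hESCs, 2.2% of the 19499 tested genes passed the threshold (FDR under 0.01 and an absolute log2 fold change above 1), 1.06% as higher and 1.14% as lower in late hESCs. Of the other CCL genes tested, 0 of 5 passed, as did 0 of 9 CXCL genes (median log2 fold change -0.53) and 0 of 6 NLRP genes (median -0.33), numbers too small to set apart from the share over all genes. In the APOL family, APOL6 was higher in late hESCs (log2 fold change 2.14, SE 0.36, FDR 0.0049) and the 2 others did not pass.

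The cancer-testis genes CSAG2 and CSAG3 lie 39.4 kb apart on the X chromosome, on opposite strands, and their transcripts were 99.9% identical over 844 bases, so reads could be divided between them only by estimation. CSAG2 had 1, 0.5, 0 and 1 counts in early samples and 166.34, 141.18, 70.88 and 73.13 counts in late samples. CSAG3 had 2, 0.5, 3 and 1 counts in early samples and 157.64, 142.8, 79.12 and 69.87 counts in late samples. In both, the P3 samples lay above the P4 samples without overlap, as samples of these groups did, in either direction, in 46.1% of all tested genes. MAGEA genes interleaved with the pair had another pattern; they are named here after their values were seen. MAGEA12, a tumour antigen gene, was at 18.8 and 44.9 CPM in P3 but at 0.0687 and 0.101 CPM in P4 and at most 0.0287 CPM in P1 and P2. MAGEA2 was at 61.3 and 54.8 CPM in P3 and at 0.00996 and 0 CPM in P4, and MAGEA2B at 26.8 and 21.6 CPM in P3 and 0.471 CPM in both P4 samples, and this pair may also share reads. All 3 were lower in P4 than in P3 (edgeR FDR 1.5e-05 for MAGEA12, 1.3e-05 for MAGEA2 and 0.001 for MAGEA2B). CSAG2 and CSAG3 changed by -0.91 (SE 0.40, FDR 0.24) and -0.82 (SE 0.40, FDR 0.29) in the same comparison.

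**Figure D3:**
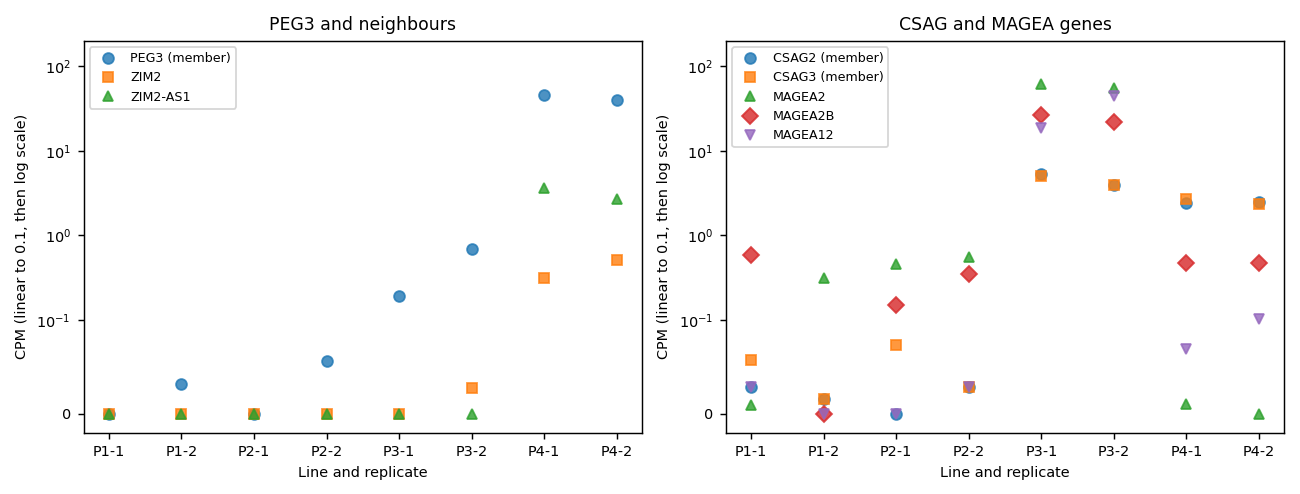
CPM in each sample, on an axis linear to 0.1 and logarithmic above, of PEG3 with ZIM2 and ZIM2-AS1 (left) and of CSAG2 and CSAG3 with 3 MAGEA genes (right). ZIM2-AS1 is above 0 only in the 2 P4 samples, whereas MAGEA12 reaches 18.8 and 44.9 CPM in P3 and stays near the early level in P4, where CSAG2 and CSAG3 are between 2.35 and 2.72 CPM.

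PEG3 among the on genes and NAP1L5 among the off genes are imprinted genes expressed from the paternal allele. PEG3, a zinc finger protein gene on the minus strand of chromosome 19 at 56810077 to 56840728, had 0, 1, 0 and 2 counts in early samples, 6 and 25 counts in P3 and 1320.87 and 1169.9 counts in P4. The P3 samples therefore stood close to the lower limit of the rule, and the large counts were in P4 alone. NAP1L5, a nucleosome assembly protein gene within an intron of HERC3 on chromosome 4, had 115, 62, 125 and 92 counts in early samples and 0, 0, 0 and 1 counts in late samples. HERC3 itself was at 21.3 to 34.8 CPM in early and 34.1 to 37.4 CPM in late samples (log2 fold change 0.31, SE 0.16, FDR 0.24).

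Among the other on genes, MIR142HG, the host transcript of a blood-cell microRNA, had 3, 1, 3 and 3 counts in early samples and 213, 252, 297 and 162.21 counts in late samples. Blood markers were at most 0.72 TPM in any sample, and TSPOAP1, whose start lies 3.7 kb away, did not pass the test (log2 fold change -0.59, SE 0.31, FDR 0.25). CHMP1B2P, a unitary pseudogene on the X chromosome, had 1, 1, 0 and 0 counts in early samples and 68, 108, 93 and 101 counts in late samples. PKLR, the liver and red cell pyruvate kinase, had 2, 2, 1 and 2 counts in early samples and 57, 78, 40 and 32 counts in late samples. PON3, a lactonase bound to high-density lipoprotein, and TUSC1, a candidate tumour suppressor gene, were at 0 in all early samples, and reached 20, 20, 15 and 7 counts and 6, 6, 34 and 32 counts in late samples. TUSC1, like LINC00839, was higher in both P4 samples than in both P3 samples, though the samples of these groups did not overlap in 46.1% of all tested genes. The on genes not described by their counts had means of 10.3 to 23.75 counts in late hESCs. They included RXRG, a retinoid X receptor, ATP6V1B1, a subunit of the proton pump V-ATPase, and INSC, a spindle orientation adaptor with 12, 12, 6 and 42 counts in late samples, besides CCDC68, HTR5A-AS1 and the pseudogenes LETM1P2, HCG4B and FAM172BP.

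Off genes were led after NAP1L5 by GPRC5D-AS1, an antisense RNA, with 33.51, 45, 56 and 41 counts in early samples and 1, 2, 2 and 0 counts in late samples. CTSF, the lysosomal cysteine protease cathepsin F, had 27, 115, 22 and 11 counts in early samples and 3, 1, 2 and 2 counts in late samples. Sample 2 of P1 stood far above the other early samples for CTSF. The same sample was highest for HSD17B7P2, a pseudogene of a steroid dehydrogenase, with 19.15, 62.54, 26.93 and 11.66 counts in early samples and 0 in all late samples. The mitochondrial share of that sample was also the highest of the series, at 18.53%. Over the 22 off genes it was the highest early sample for 11. The share of all tested genes that were highest in that sample is not given, so nothing is read from this count. The part of RNA quality in it was not tested.

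IGSF3P2, an unprocessed pseudogene, had 29.09, 8.01, 39 and 44.17 counts in early samples and 0 in all late samples. ANKRD36BP2, another pseudogene, was more even among the early samples than the off genes above, with 27, 25, 25.01 and 24 counts in early samples and 0, 0, 0 and 2 in late samples. PHACTR3, a regulator of protein phosphatase 1 and actin, had 24, 7, 21 and 18 counts in early samples, and RELN, the secreted protein that guides neuronal migration, had 9, 15, 27 and 19. Both were at 3 counts or fewer in every late sample. The remaining off genes had means of 10 to 16.75 counts in early hESCs, among them ADRA1A, an adrenergic receptor, MSH4, a meiotic recombination protein, SLC6A7, a proline transporter, FAM135B, C4orf51 and LHFPL3. The others were ANKRD20A1, ENSG00000271652, LINC02335, LINC02474, LINC02872, ENSG00000271327, ENSG00000261606 and ENSG00000259219, of which the last 6 are non-coding RNA genes. RELN and LHFPL3 were the closest pair of off genes, 339.1 kb apart on chromosome 7.

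Whether the on genes changed further between P3 and P4 hESCs was tested by edgeR over all 19499 tested genes. The rule did not compare P3 with P4, but its limits of 5 counts and a mean of 10 used the same counts. A gene could therefore meet the mean through 1 of these groups. All 28 on genes passed the filter on low counts, and 1 of them (3.57%) passed the threshold, beside 0.815% of all tested genes, of which 0.554% were higher and 0.262% lower in P4. That gene was PEG3, at 0.443 ± 0.359 CPM in P3 and 42.4 ± 4.23 CPM in P4 (SD, n = 2 each), with a log2 fold change of 6.54 (SE 0.50, FDR 2.2e-05). TUSC1 (log2 fold change 2.63, SE 0.62, FDR 0.05) and LINC00839 (1.56, SE 0.48, FDR 0.11) were higher in P4 at an unadjusted p below 0.05, and CSAG2 was lower, but none passed. The share of all tested genes below that unadjusted p is not given for this contrast, so nothing is read from these genes. TUSC1, with 6 counts in each P3 sample, met the mean of 10 only through P4. The median over the on genes was 0.09, beside 0.01 over all tested genes. In 12 on genes the samples of P3 and P4 did not overlap, beside 46.1% of all tested genes. With standard errors of 0.28 to 0.82 on the log2 scale, small changes in the others were not detectable at this depth.

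The corresponding contrast for the off genes, P2 against P1, had 0 of 20 tested off genes past the threshold, beside 0.0% of all tested genes. At an unadjusted p below 0.05 there were 2 off genes, beside 9.14% of all tested genes, and DESeq2 called 0 of the off genes and 0.191% of all genes it tested. These 2 genes were CTSF (log2 fold change -2.36, SE 0.68, FDR 0.39) and C4orf51 (-1.60, SE 0.62, FDR 0.50), both lower in P2. C4orf51, with 8 and 7 counts in the P2 samples, met the mean of 10 in the rule only through P1. LHFPL3 and ENSG00000259219 did not pass the filter. The median over the off genes was -0.11, and in 7 the samples did not overlap, beside 48.4% of all tested genes.

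**Figure D4:**
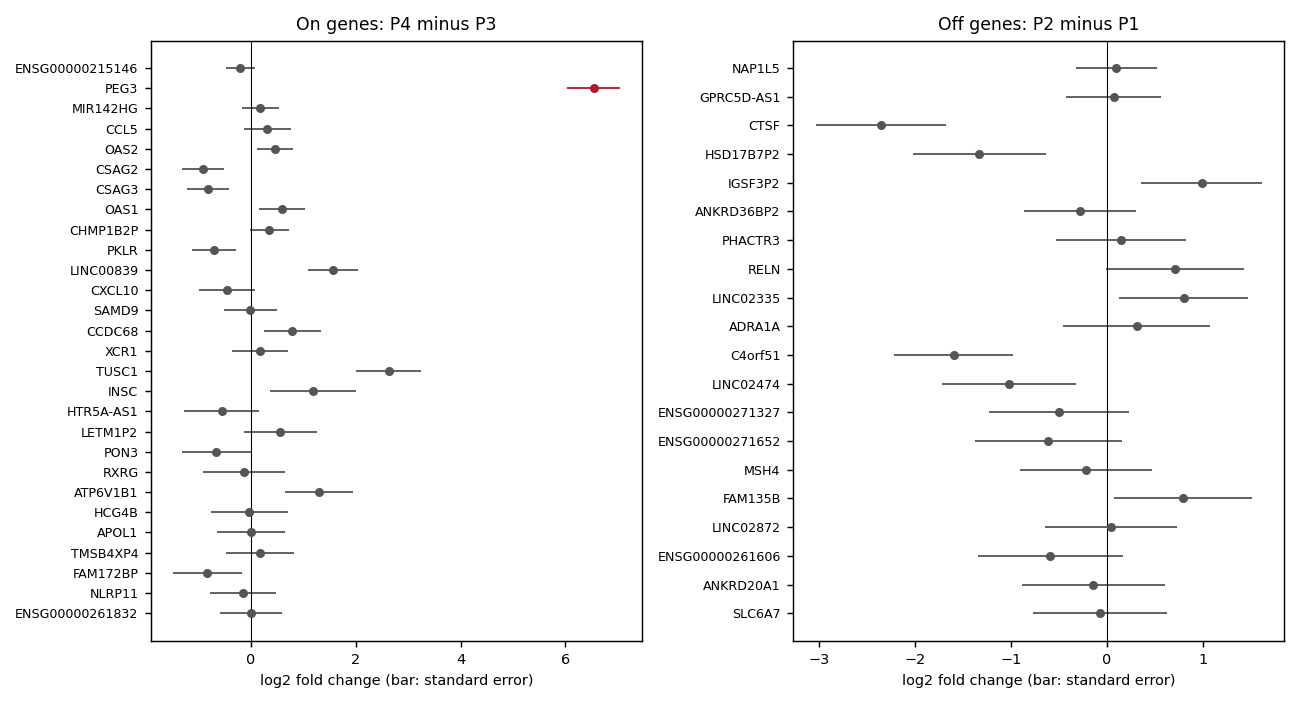
log2 fold change with its standard error for each on gene between P4 and P3 hESCs (left) and each tested off gene between P2 and P1 hESCs (right). PEG3, in red, is the gene that passed the threshold, at 6.54.

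The locus of PEG3 was examined next because its neighbours are imprinted with it. ZIM2-AS1, whose start lies 75.4 kb from that of PEG3, had 0 counts in all P1, P2 and P3 samples and 105 and 81 counts in P4, higher in P4 than in P3 (edgeR FDR 0.0011). ZIM2, which shares exons with PEG3, had 0 to 1 counts up to P3 and 9.13 and 15.1 in P4. MIMT1, which starts next to PEG3 on the opposite strand, had 0 counts up to P3 and 8 and 10 counts in P4, and USP29 had at most 1 count in any sample. These genes were named after their values were seen, and ZIM2, MIMT1 and USP29 were too low to be tested.

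The switched genes were spread over 21 chromosomes, the on genes over 16 and the off genes over 13. Chromosome 7 held 5 of them, chromosome X held 3 on genes and 0 off genes, and chromosome 19 held 3 on genes and 0 off genes. Chromosome 20 held 1, the off gene PHACTR3. The share of all tested genes on each chromosome is not given. The genes set aside by name, among them CSAG1 and those with a ZNF symbol, are also missing from these counts. The counts are therefore a description, and no preference for a chromosome is read from them. Within 250 kb of one another lay only the 3 pairs of on genes already described.

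Other tested genes whose start lay within 100 kb of a switched gene were then compared between early and late hESCs. There were 109 such neighbours, of 32 switched genes, and 3 of them (2.75%) passed, beside 2.2% of all tested genes. They were 1 of 72 neighbours of on genes and 2 of 37 neighbours of off genes, and each moved with its switched gene. LINC00458, a long non-coding RNA of pluripotent cells, was at 77.0, 47.0, 41.4 and 46.8 CPM in early samples and 1.93, 1.42, 4.63 and 5.92 CPM in late samples (log2 fold change -3.94, SE 0.42, FDR 0.00036). It starts 16.4 kb from the off gene ENSG00000271652, a processed pseudogene of 376 bases on the opposite strand that lies inside the span of LINC00458 and had 19, 10, 16 and 6 counts in early samples. LSP1P4 was lower (-3.38, SE 0.51, FDR 0.0029) 76.8 kb from IGSF3P2. HLA-K, a pseudogene of the HLA cluster whose exons overlap those of the on gene HCG4B, was higher in late hESCs (3.72, SE 0.63, FDR 0.0052). The medians over the neighbours were 0.22 for on genes and -0.09 for off genes, beside 0.01 over all tested genes. A positive log2 fold change was found in 49 of the 72 neighbours of on genes and 14 of the 37 neighbours of off genes. The share of positive values over all tested genes is not given, so these counts are a description. The share that passed was near that of all genes, and leaving out sample 2 of P2 or either sample of P3 reduced the 3 calls to 1.

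**Figure D5:**
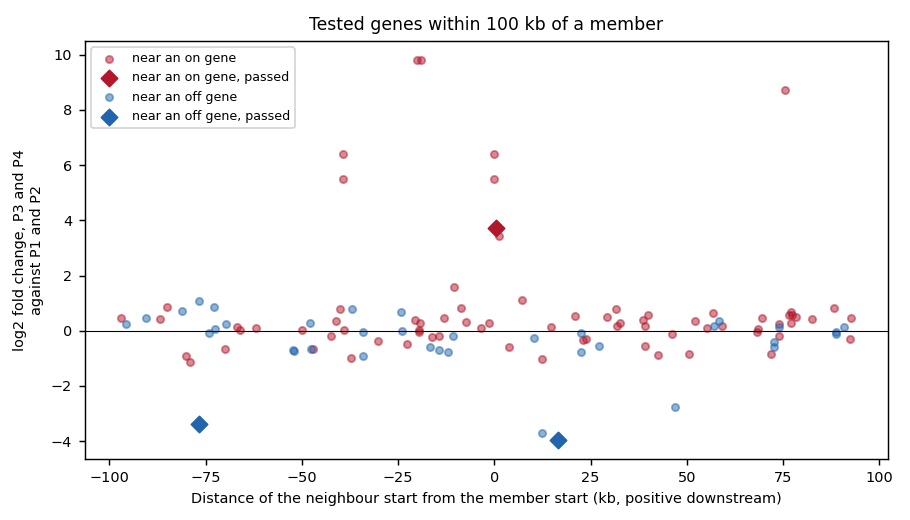
log2 fold change between late and early hESCs of the 109 neighbours against the distance of their start from that of the switched gene, in kb. The 3 that passed are drawn as diamonds, at 3.72 near an on gene and at -3.38 and -3.94 near off genes; genes set aside by name are not drawn.

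By annotated type, the on genes held 19 protein-coding genes (67.9%), 6 pseudogenes (21.4%) and 3 non-coding RNA genes (10.7%), and the off genes held 11 (50%), 4 (18.2%) and 7 (31.8%). Among the other tested genes 79.3% were protein-coding, 5.8% pseudogenes and 14.9% non-coding, and among all annotated genes in the files, from which the rule drew, 34.5%, 26.2% and 39.3%. The share of pseudogenes in both sets was thus above that of the other tested genes and below that of all annotated genes. Another gene with at least 95% identity over part of the transcript, overlapping genes included, was found for 8 on genes and 5 off genes, and 9 on genes and 6 off genes had a count that was not whole in some sample, as arises when reads fit more than one place.

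Several of these values are therefore uncertain. TMSB4XP4, a processed pseudogene of thymosin beta 4, had 14.01, 8.01, 9.02 and 13.01 counts in late samples and was 94.4% identical to the parent TMSB4X, which itself rose from 386 to 653 CPM in early samples to 1770 to 2250 CPM in late samples (log2 fold change 1.88, SE 0.18, FDR 0.00017). ENSG00000261832 shared 51.9% of its transcript with CLN3 at 100% identity. IGSF3P2 and ANKRD20A1 had copies at 98.0% and 99.4% identity. HSD17B7P2 was 97.7% identical over 50.2% of its length to HSD17B7, which stayed between 19.7 and 24.9 CPM in early and 17.1 and 21.8 CPM in late samples. For ENSG00000215146, the on gene with the highest level, the best match was ZNF355P, with 85.4% identity over 42.1% of the ENSG00000215146 transcript. ENSG00000215146 has no symbol, so the exclusion of ZNF symbols could not apply to it. It had 2 other genes at 95% identity or more over part of its transcript. Its count was not whole in 4 samples. CCL5 had 4 such genes, though its counts were whole in every sample. OAS2, MIR142HG, CXCL10, NAP1L5, CTSF and RELN had no such copy. Exons overlapped those of another gene on the same strand in 4 on genes and 3 off genes, and on the other strand in 5 and 2.

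The limits of the rule cut through a continuous range. Just inside were the on genes ENSG00000261832, with a mean of 10.3 counts, and FAM172BP and NLRP11, with 10.75 each, and just outside were CDKN2C, an inhibitor of cyclin-dependent kinases, with 9.5 and PKD2L2-DT with 9. Of the off genes, SLC6A7 and ENSG00000259219 had a mean of 10 and ANKRD20A1 of 10.22, and ENSG00000261760, PDE4DIPP7 and MINAR2, with 9.92, 9.51 and 9.25, fell just outside. A highest silent sample above 3 and up to 5 counts kept out a further 19 genes in the on direction and 40 in the off direction.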

How the data were processed

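Messenger RNA of the 4 passage groups was sequenced in 2 samples each. Per the labels, the authors prepared strand-specific TruSeq libraries and used Trim Galore, FastQC, STAR 2.7.3a and RSEM 1.3.3 with GRCh38. The deposited expected counts and TPM per gene, both estimated by RSEM, were used. The annotation release and the strand setting of the counting are not given in the sources used here, so overlapping genes on opposite strands may share reads. Of the identifiers, 57055 were found in GENCODE 29, which gave types and positions, and 56558 in the gene name table.

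Expected counts were rounded and fitted with edgeR 4.0.16 (quasi-likelihood, TMM, filterByExpr by group, 19499 genes) and p-values were adjusted by Benjamini-Hochberg over all genes tested. P4 against P3 and P2 against P1 used 4 groups of 2, and late against early used 2 groups of 4. The late against early fit took the 4 samples of each side as independent, although they came from 2 passage groups. Its FDR values may therefore be too small. CPM used TMM effective library sizes. Alternatives were DESeq2 1.42.0, limma 3.58.1 on log2(TPM + 1) and log2(TPM + 0.1), other filters and thresholds, and each sample left out in turn. Scripts were tested on simulated data. Transcripts were compared with BLAST+ 2.17.0, and promoters came from RefSeq on GRCh38.p14. Depth was 26874899 to 38095600 counts per sample, and intervals and floors cover counting error only.

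The switched genes, the gene lists and the families by symbol stem were chosen with earlier results of these data known. Named were the 12 on and 12 off genes with the highest mean CPM, those that passed a test, lay within 250 kb of another, shared a stem or a list, or lay next to the limits, and neighbours that passed; other names were added after their values were seen. Genes set aside by name were IFI44, OASL, IFNL1, CSAG1, CRYZ, TRIM4 and those with a ZNF symbol.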

Additional observations from a re-analysis of the deposited data

Results flagged for a closer look

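PEG3 differed between P3 and P4 hESCs, the 2 groups in which it was taken as switched on. Its log2 fold change, P4 minus P3, was 6.54 (SE 0.50, edgeR FDR 2.2e-05), with 6 and 25 counts in the P3 samples and 1320.87 and 1169.9 counts in the P4 samples. Each P4 sample was above each P3 sample. On the log2(TPM + 1) scale in limma the difference was 3.12, and on the log2(TPM + 0.1) scale 5.65.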

How the results depend on the processing

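Of the on genes, 1 passed between P3 and P4, 2 without the filter on low counts, and 2 at an FDR under 0.05 without a minimum fold change. The additional gene was TUSC1 (FDR 0.0082 without the filter), which met the mean limit of the rule only through its P4 counts. Of the off genes, 0 passed between P1 and P2 and 1 without the filter, CTSF (log2 fold change -2.32, FDR 0.0017). With each sample left out in turn the counts were 1 to 1 and 0 to 0. Among the neighbours, 3 passed, but 8 in a model with 4 groups, 9 without the filter, 8 with DESeq2, 12 at an FDR under 0.05 and 8 of 278 within 250 kb; with a sample left out there were 1 to 4.

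The rule gave 28 on genes, 8 with at most 1 count allowed in the silent samples, 5 with 0, 15 with a mean of at least 20 and 11 with a mean of at least 50. It gave 22 off genes, 11 on TMM-scaled counts, 7 with at most 1 count, 4 with 0, 6 with a mean of at least 20 and 1 with a mean of at least 50. With a sample left out of the rule there were 27 to 35 on genes and 21 to 41 off genes, with 41 without sample 2 of P3, 37 without sample 1 of P4 and 39 without sample 2 of P4. Limits set in TPM gave 21 on genes, 9 of them shared with the 28, and 28 off genes, 8 of them shared with the 22. Limits of 5 and 10 counts gave 22 on genes with 15 shared and 21 off genes with 5 shared, so the lists depend on where the limits lie. The cause was not tested.

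The replicate numbers could not be shown to pair the samples (correlations of deviations -0.0901 to 0.1378). With a replicate block 1 on gene, 0 off genes and 2 neighbours passed. For single genes, 446 of 448 alternative log2 fold changes of P4 against P3 and 319 of 320 of P2 against P1 stayed on their side of the threshold. Of them, 25 and 20 changed sign, in 13 on genes and 9 off genes, of which none had passed, and INSC went from 1.18 to -0.78 without sample 2 of P4. In TPM as deposited, 6 of 50 ratios between lines moved by more than the spread between replicates. The median share of G and C in the promoters was 58.3% in on genes and 62.7% in off genes, beside 65.0% in other tested genes. Depth limits the off genes most, since 16 of 22 had under 20 counts on the expressed side.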

Other observations

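Of 36 imprinted genes tested that were not among the switched genes, 3 were higher and 2 lower in late hESCs, beside 1.06% and 1.14% of all tested genes, and the median over these genes was -0.07 on the log2 scale beside 0.01 over all genes. H19, a maternally expressed growth-restraining RNA, was at 4.1 to 4.86 CPM in early and 0.39 to 1.04 CPM in late samples (log2 fold change -2.72, SE 0.32, edgeR FDR 0.00063), and INPP5F, a phosphoinositide phosphatase gene, was at 23.5 to 43.6 CPM in early and 170.0 to 281.0 CPM in late samples (2.81, SE 0.25, FDR 9.7e-05). The others were HM13 and MCTS2, which were higher, and ATP10A, which was lower. HM13 and MCTS2 overlap each other in the part of chromosome 20 of which P3 and P4 hESCs are described to carry extra copies, and the part of copy number in their levels was not tested.

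Of 16 other cancer-testis genes tested, 1 passed, beside 2.2% of all tested genes, a number too small to set apart from that share. MAGEA4 was at 0.201 to 0.633 CPM in early samples, 503.0 and 402.0 CPM in P3 and 8.62 and 7.3 CPM in P4 (log2 fold change 9.06, SE 1.52, edgeR FDR 0.0049), highest in P3 and above the early samples in P4. The median over the 16 genes was 1.04, beside 0.01 over all tested genes. Of the 68 cancer-testis genes listed, only 18 were tested, switched genes included. A gene silent elsewhere could pass the filter on low counts only through a group where it was high. The 2 medians are therefore not comparable, and nothing is read from them. Both lists were chosen with earlier results of these data known. Of the lists of pluripotency, mesoderm and endoderm, neural, trophoblast, blood and fibroblast markers, 0 of the 24 tested genes passed between early and late hESCs, beside 2.2% of all tested genes.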
